A study of Drosophila melanogaster with 399 samples.

Results

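The 10 genes described here, zen, dpp, tld, scw, sog, brk, rho, vnd, ind and sim, divide the early Drosophila embryo along its dorsal-ventral axis. They were chosen by symbol, and all 10 were found among the 17612 gene symbols counted in 399 whole-embryo polyA RNA-seq libraries. Of these libraries, 271 came from embryos in which 1 of 45 transcription factors (TFs) was targeted by RNA interference (RNAi), and the others came from control embryos in 21 sets. In the RNAi groups, females homozygous for da-Gal4 insertions on 2 chromosomes, a driver from the daughterless gene that is active maternally and throughout the embryo, were crossed to males homozygous for a UAS short hairpin against the TF (TRiP, Valium20), with 1 hairpin line for each TF. The control embryos mostly came from the same driver crossed to a hairpin against mCherry, a fluorescent protein gene that flies lack, so that every RNAi and mCherry embryo carried an active driver and a hairpin. The control of E5 was labelled da-Gal4, and the control of twi was labelled MTD-Gal4, the name of a maternal triple driver. The study's methods name da-Gal4 as the driver of the TF hairpins without an exception for twi, and the labels of the twi RNAi libraries name none. The methods also refer to a supplementary list of lines and drivers, whose entry for twi is not given here. From the methods text and labels, a difference in driver and the hairpin cannot be told apart in that comparison. Embryos were collected at 0–1.5 h after egg lay, in a 2-h window around the peak expression of the TF (2–4 h to 14–16 h) and at 16–18 h, and Hr51 and CG9876 had a second peak window at 6–8 h. Every group had 2 libraries, except CG15696 RNAi at 0–1.5 h and Camta RNAi at 0–1.5 h and 12–14 h, which had 1.

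In the blastoderm, maternal Toll signalling places a nuclear gradient of the TF Dorsal that is highest ventrally. Dorsal and its target twi specify the presumptive mesoderm ventrally, lower Dorsal levels permit the neurogenic ectoderm genes laterally, and the genes that Dorsal represses are transcribed only dorsally. There, BMP ligands are concentrated toward the dorsal midline by an extracellular antagonist and a protease that cleaves it, and the highest signal specifies the amnioserosa. By role, dpp and scw encode the BMP ligands, tld encodes the metalloprotease that cleaves the antagonist, and zen encodes a homeodomain TF of the amnioserosa. The antagonist itself is encoded by sog, and brk encodes a repressor of BMP target genes. An intramembrane protease that releases EGF ligands is encoded by rho, homeodomain TFs of the medial and the intermediate neuroblast columns by vnd and ind, and a bHLH-PAS TF of the ventral midline by sim.

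The 10 genes lay at separate loci of the release 6 genome (dm6), and none shared an exonic base with another annotated gene. On chromosome 3R were zen (FBgn0004053, 6752864 to 6754194, minus strand), tld (FBgn0003719, 24749731 to 24753510, plus strand) and sim (FBgn0004666, 13057755 to 13078124, plus strand). On chromosome 2L were dpp (FBgn0000490, 2428372 to 2459823, plus strand) and scw (FBgn0005590, 19699379 to 19700968, minus strand). On chromosome X were sog (FBgn0003463, 15603283 to 15633434, minus strand), brk (FBgn0024250, 7307939 to 7311132, plus strand) and vnd (FBgn0261930, 582121 to 598151, plus strand). On chromosome 3L were rho (FBgn0004635, 1463811 to 1468944, plus strand) and ind (FBgn0025776, 15042799 to 15043924, minus strand). Counts were made over whole genes, so each value sums all exons of a gene, which together covered between 1126 bases (ind) and 6442 bases (sog).

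A set of 5 hairpins is shown because each gave at least 1 call on these genes at the peak window of its target, outside the twi experiment. Each is the sense strand of the hairpin, 5′ to 3′, as deposited, in lower case, with the bases 14 to 20 that pair with the seed of the guide strand in capitals.
CG33557: ctgcacaaatacgAGAGCGAa
Kah: ccgattcgatctaCAGCTCTa
caup: tacgattacgagtACGTTTAa
scro: tagcacaaagaagAAAGCGAa
zfh2: atggatgttactaAAGACTTa
The targets are on chromosomes X (CG33557), 3L (Kah, caup and scro) and 4 (zfh2).

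Between 13148430 and 167412388 counts fell on genes in each library (median 54799768), and the 14 libraries of 2–4 h had 29766746 to 90959187. Levels are given in CPM, a gene's counts relative to a library total that was scaled by the trimmed mean of M values (TMM) over all 399 libraries. A gene was called in a comparison when edgeR's quasi-likelihood test gave a Benjamini-Hochberg adjusted p of at most 0.1 over all genes tested and the absolute log2 fold change was at least 0.5. The libraries are of whole embryos, so fewer cells that express a gene and less RNA of it in each cell cannot be told apart.

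The first question was when the embryo carries these transcripts, and the control libraries showed a steep common start followed by divergence. From 0–1.5 h to 2–4 h, 9 of the 10 genes rose, by 2.25 (zen) to 5.07 (ind) on the log2 scale, and between 2–4 h and 6–8 h zen, scw, ind, sog and tld fell while brk rose. At 0–1.5 h (42 libraries) every gene was low, with medians between 0.425 CPM (sim) and 3.54 CPM (scw). In the same libraries 9 late muscle genes summed to a median of 230 CPM (2.47 to 1729 CPM). A list of 8 late cuticle genes summed to 83.4 CPM (0.031 to 459 CPM). Whether older embryos among them raised the levels of the 10 genes was not tested. In the step from 0–1.5 h to 2–4 h, 37.4% of all 13072 genes tested were called higher. Over the step to 6–8 h, 29.1% were called higher and 18.7% lower. From 0–1.5 h to 16–18 h, dpp, sog, brk, rho, vnd and sim rose and zen, scw and ind fell, where 52.2% of all genes were called higher and 32.8% lower.

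**Figure D1:**
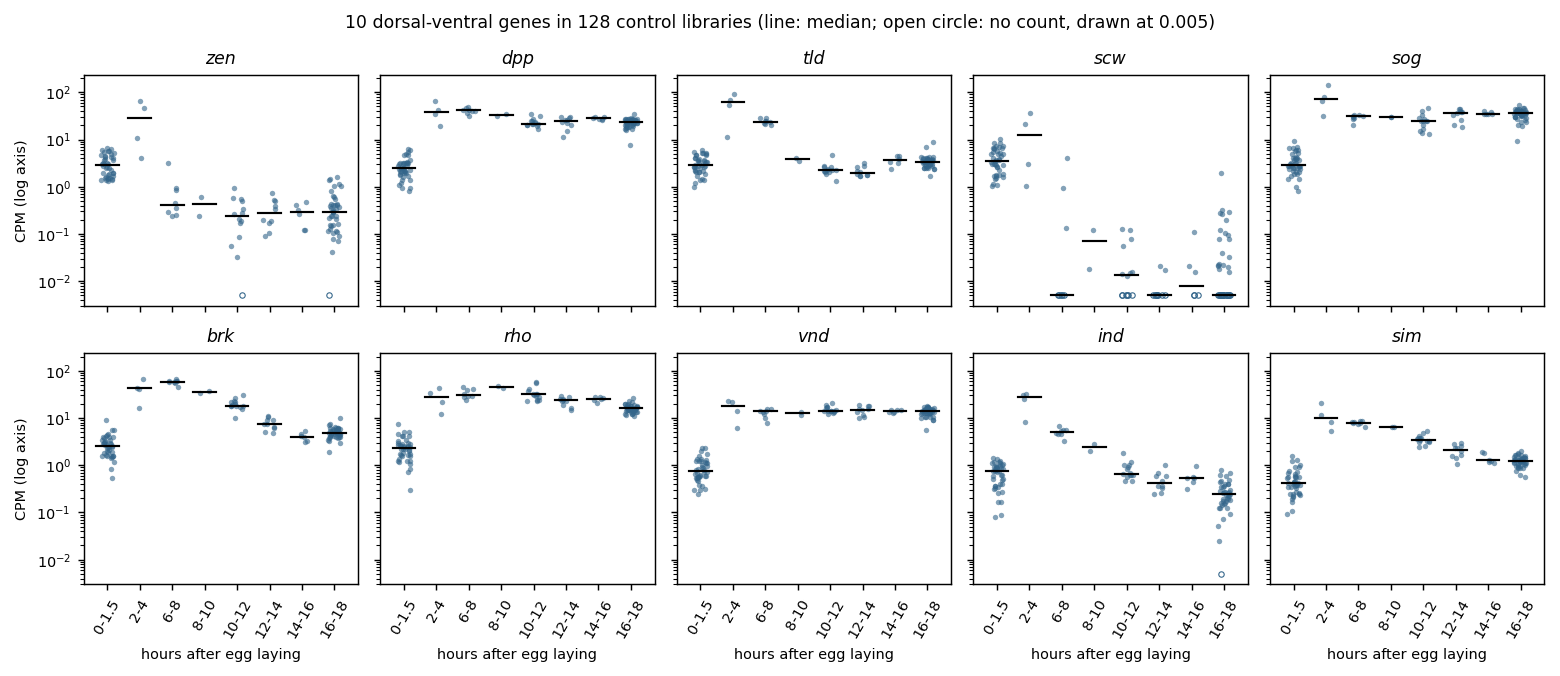
Level of each gene (CPM, log axis) in each control library against the collection window in hours after egg lay. Points are libraries, lines are medians and open circles mark libraries without a count, drawn at 0.005. All 10 genes had higher medians at 2–4 h than at 0–1.5 h, after which zen and scw medians were at 0.424 CPM or lower, and dpp, sog, rho and vnd medians stayed at or above 12.5 CPM.

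The genes zen, scw, tld and dpp differed most in how long they lasted. For zen, the 4 control libraries of 2–4 h gave 4.02 and 10.8 CPM (mCherry) and 47.6 and 65.7 CPM (MTD-Gal4), and the medians of later windows were 0.401 CPM at 6–8 h (8 libraries) and 0.290 CPM at 16–18 h (42 libraries). The zen level thus fell by 4.10 on the log2 scale from 2–4 h to 6–8 h (SE 0.70, edgeR adjusted p 5.55e-07). The ligand gene scw gave 1.02 and 3.02 CPM (mCherry) and 36.4 and 21.6 CPM (MTD-Gal4) at 2–4 h, and its median at 6–8 h was 0 CPM. It was the only one of the 10 not called between 2–4 h and 0–1.5 h (log2 1.15, SE 0.83, adjusted p 0.238), and then fell by 5.55 (SE 1.06, adjusted p 7.71e-06). In both genes the MTD-Gal4 libraries of 2–4 h lay above both mCherry libraries.

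The protease gene tld had 11.6 and 54.7 CPM (mCherry) and 70.3 and 91.4 CPM (MTD-Gal4) at 2–4 h, a median of 23.8 CPM at 6–8 h, and 3.78 CPM at 8–10 h (3.43 and 4.12 CPM in its 2 libraries). It fell by 2.65 between the last of these windows (SE 0.45, adjusted p 2.92e-05), a step in which 4.85% of all genes were called lower. The ligand gene dpp, in contrast, kept a median between 21.7 and 41.4 CPM in every window from 2–4 h on, and no step after 2–4 h was called. In 21 of 21 control sets both 16–18 h libraries had more dpp than both 0–1.5 h libraries, whereas zen and scw were lower in 20 of 21 sets and tld was higher in 7, lower in 3 and overlapping in 11.

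Among the genes that oppose or limit BMP signalling, sog had 31.7 and 142 CPM (mCherry) and 79.7 and 64.5 CPM (MTD-Gal4) at 2–4 h. Its median was 30.8 CPM at 6–8 h, a fall of 1.46 (SE 0.35, adjusted p 0.000291), and 36.4 CPM at 16–18 h, with a rise of 0.53 from 10–12 h to 12–14 h (SE 0.24, adjusted p 0.060). The repressor gene brk had 16.3 and 67.0 CPM (mCherry) and 41.5 and 43.8 CPM (MTD-Gal4) at 2–4 h and its highest median, 59.0 CPM, at 6–8 h. Its level then fell by 1.34 from 10–12 h to 12–14 h (SE 0.25, adjusted p 5.89e-06) and by 1.13 from 12–14 h to 14–16 h (SE 0.31, adjusted p 0.00585). The median of brk was 4.91 CPM at 16–18 h.

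The genes of the lateral and ventral ectoderm also separated after 2–4 h. The EGF protease gene rho gave 12.0 and 42.8 CPM (mCherry) and 21.7 and 33.5 CPM (MTD-Gal4) at 2–4 h, peaked at a median of 45.7 CPM at 8–10 h, and fell by 0.52 from 10–12 h to 12–14 h (SE 0.25, adjusted p 0.0811). The medial column gene vnd gave 6.05 and 22.6 CPM (mCherry) and 21.8 and 14.0 CPM (MTD-Gal4) at 2–4 h, and its medians stayed between 12.5 and 15.1 CPM in all later windows, with no step called. Its intermediate column counterpart ind gave 8.22 and 31.2 CPM (mCherry) and 24.9 and 31.6 CPM (MTD-Gal4), fell by 1.89 to a median of 5.03 CPM at 6–8 h (SE 0.55, adjusted p 0.00343), and had a median of 0.241 CPM at 16–18 h. The midline gene sim gave 5.40 and 21.1 CPM (mCherry) and 11.8 and 8.14 CPM (MTD-Gal4) at 2–4 h. It fell by 0.70 from 10–12 h to 12–14 h (SE 0.29, adjusted p 0.0436) and by 1.02 from 12–14 h to 14–16 h (SE 0.37, adjusted p 0.0407).

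In the step from 10–12 h to 12–14 h, 19.9% of all genes were called higher and 16.3% lower, and in that to 14–16 h 8.81% were called lower. No member was called from 8–10 h to 10–12 h (2 at an unadjusted p under 0.05), where 5.03% of all genes were called in either direction, or from 14–16 h to 16–18 h (1 at an unadjusted p under 0.05), where 18.5% were. No control set held both 2–4 h and 6–8 h libraries, so that step was linked through the 0–1.5 h and 16–18 h libraries of each set. With only the 2 MTD-Gal4 libraries left at 2–4 h, the rise of brk to 6–8 h was 0.09 and was not called, and without the first mCherry library it was 0.34 and not called. With only the mCherry libraries left, the rise of zen to 2–4 h was 1.15 and was not called. Without replicate 1 of every group, the falls of ind (−1.49) at 6–8 h and of brk (−1.05) and sim (−1.41) at 14–16 h were not called, and without replicate 2 those of tld at 6–8 h (−0.16) and 8–10 h (−2.55) and of brk (−1.20) and sim (−0.35) at 14–16 h were not. Leaving out either replicate of every group also ended the calls on rho (−0.48 each), sim (−0.53 and −0.75) and sog (0.47 and 0.66) at 12–14 h and on brk at 6–8 h (0.68 and 0.95). RLE scaling ended the calls on rho (−0.355) and sim (−0.52) at 12–14 h and on sim at 14–16 h (−0.86), and testing without the filter on low counts ended those on brk at 6–8 h (0.74), rho at 12–14 h (−0.46) and sim at 14–16 h (−0.92). The fall of tld to 6–8 h was not called with the mCherry libraries alone (−0.82) or the MTD-Gal4 libraries alone (−0.73).

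Levels were compared between genes only after division by exonic length. Per kilobase, the median was highest for zen at 0–1.5 h (2.25 CPM per kb), for ind at 2–4 h (24.9), for brk at 6–8 h (18.5), for rho at 8–10 h (15.2) and for sog at 16–18 h (5.65). At 2–4 h the order from high to low was ind, zen, tld, brk, sog, rho, scw, dpp, vnd and sim, and the ranges of every pair of neighbours overlapped over the 4 libraries. Neighbours in the order also overlapped throughout at 0–1.5 h and 16–18 h.

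Across the control libraries of all windows, the genes whose log2(CPM + 0.5) followed each member most closely were found by Pearson's r among 10079 genes with a mean of at least 1 CPM. These libraries share windows and sets, so r describes the time course and no p is given. The genes nearest to zen were Neu2 and tsg (both r = 0.95), and those nearest to dpp were Socs36E and noc (both 0.99). For tld they were CG14937 (0.85) and Ir68a (0.83), for scw CG18269 (0.99) and CG13711 (0.98), for sog cv-2 and btsz (both 0.97), and for brk ptc and Ppa (both 0.97). For rho they were drm (0.99) and noc (0.98), for vnd CG30089 and Dscam1 (both 0.98), for ind gsb (0.93) and tin (0.92), and for sim Inx3 and corn (both 0.96). Among the members, dpp and vnd were the closest pair (0.97), and rho was nearest to dpp and sog to vnd (both 0.97). The nearest member was sim for brk (0.95) and scw for zen (0.93), each also the other way round, and tld and ind were nearest to each other at the lowest r (0.81).

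The comparison of twi RNAi with its MTD-Gal4 control at 2–4 h bears on these genes most directly, because twi encodes the mesodermal bHLH TF that acts beside Dorsal. The targeted gene had 75.3 and 97.1 CPM in twi RNAi, against 179 and 191 CPM in MTD-Gal4 controls, and fell by 1.19 on the log2 scale (SE 0.17, adjusted p 0.0175). Of the 10 members, dpp, sog, brk, vnd, ind and sim rose, by 0.75 to 1.04, none fell, and zen, tld, rho and scw were not called. In this comparison 18.5% of all 9440 genes tested were called higher and 14.7% lower. The median log2 fold change was 0.77 over the members and 0.02 over all genes.

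Of zen, dpp, tld and scw only dpp was called. It had 74.3 and 78.1 CPM in twi RNAi, against 41.7 and 34.4 CPM in MTD-Gal4 controls (log2 0.90, SE 0.19, adjusted p 0.0288). The zen level was 39.3 and 68.3 CPM in twi RNAi, against 47.6 and 65.7 CPM in MTD-Gal4 controls (log2 −0.15, SE 0.28, adjusted p 0.709), and tld had 84.0 and 111 CPM in twi RNAi, against 70.3 and 91.4 CPM in controls (log2 0.19, adjusted p 0.444). In these 2 genes the groups overlapped. For scw both twi RNAi libraries, at 7.31 and 18.4 CPM, lay below both MTD-Gal4 libraries, at 36.4 and 21.6 CPM, but the replicates lay far apart within each group and the change was not called (log2 −1.29, SE 0.52, adjusted p 0.119). DESeq2, and edgeR without the filter on low counts, called scw lower.

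The antagonist gene sog had 126 and 149 CPM in twi RNAi, against 79.7 and 64.5 CPM in MTD-Gal4 controls (log2 0.83, SE 0.21, adjusted p 0.0428). The repressor gene brk had 70.8 and 87.6 CPM in twi RNAi, against 41.5 and 43.8 CPM in controls (log2 0.80, SE 0.15, adjusted p 0.0249). Both twi RNAi libraries lay above both controls in each gene. Transcripts of the medial column gene vnd stood at 37.2 and 42.4 CPM in twi RNAi, against 21.8 and 14.0 CPM in controls (log2 1.04, SE 0.29, adjusted p 0.0541), and those of ind at 50.6 and 49.7 CPM, against 24.9 and 31.6 CPM (log2 0.75, SE 0.13, adjusted p 0.0204). The midline gene sim stood at 19.6 and 19.1 CPM in twi RNAi, against 11.8 and 8.14 CPM in controls (log2 0.85, SE 0.28, adjusted p 0.0747). For rho, 34.8 and 40.8 CPM in twi RNAi lay above 21.7 and 33.5 CPM in controls, yet the difference was not called (log2 0.38, SE 0.19, adjusted p 0.184).

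**Figure D2:**
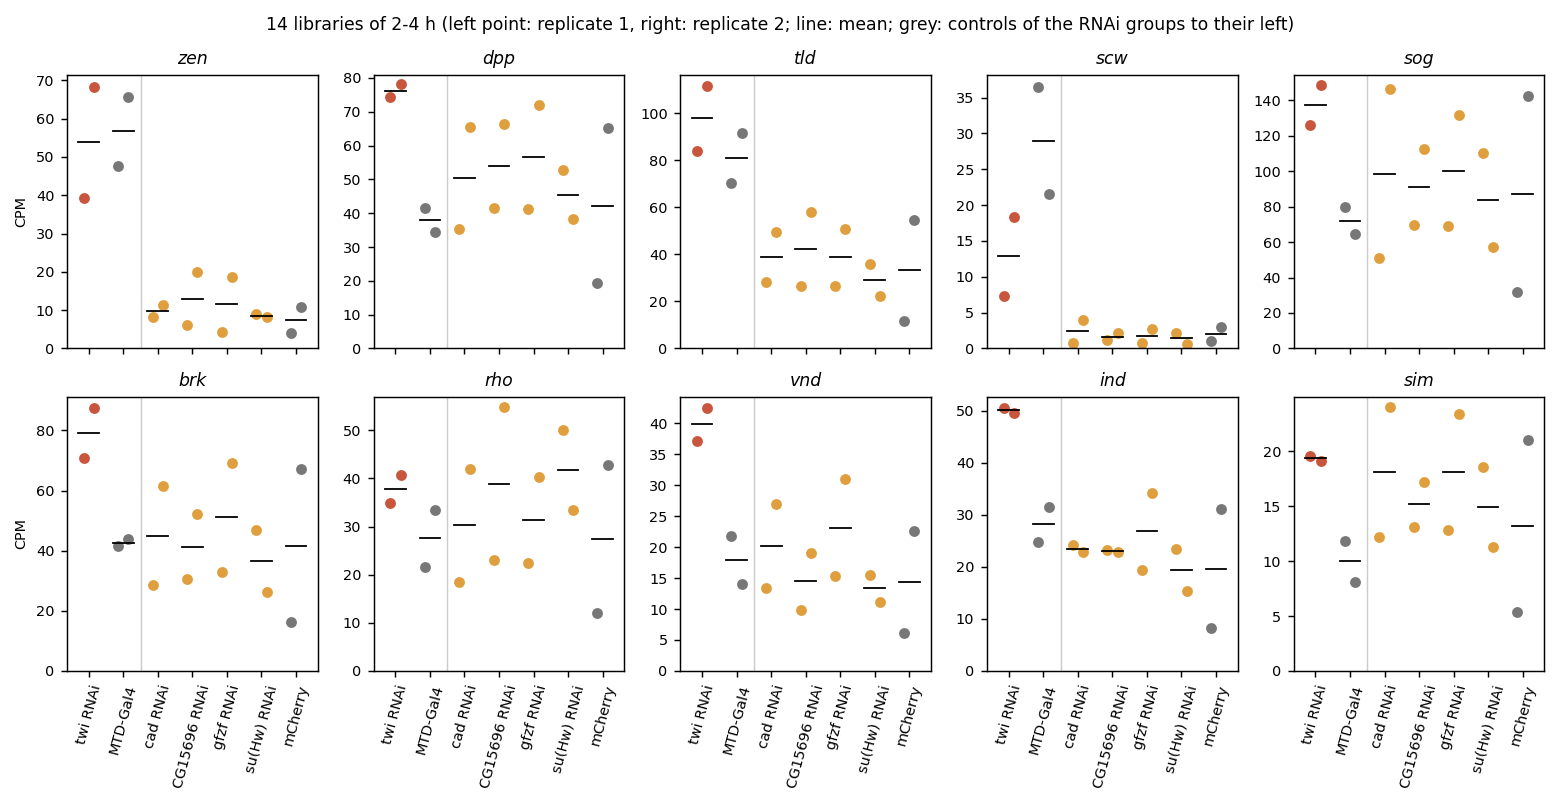
Level of each gene (CPM, linear axis from 0) in the 14 libraries of 2–4 h. The left point of each group is replicate 1, the right point replicate 2 and the line their mean, with RNAi groups in colour to the left of their grey control. The twi RNAi points of dpp, sog, brk, rho, vnd, ind and sim lie above both MTD-Gal4 points, those of scw below, and the first mCherry library is the lowest of its pair for all 10 genes.

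These 6 calls rested on both twi RNAi libraries and on the choice of control. Without either twi RNAi replicate edgeR called no gene in the whole comparison (2152 genes at an unadjusted p under 0.05 without replicate 1 and 2361 without replicate 2), although the 6 genes kept log2 fold changes of 0.74 (ind) to 1.14 (vnd) without replicate 1 and 0.64 (brk) to 0.94 (vnd) without replicate 2. Set against the 2 mCherry libraries of 2–4 h in place of the MTD-Gal4 libraries, edgeR called no gene either (3 members at an unadjusted p under 0.05). Against these libraries twi itself was not lower, since 75.3 and 97.1 CPM in twi RNAi overlapped 30.6 and 132 CPM in mCherry controls. Without the first mCherry library, which stands apart, 1 control library was left. The log2 fold changes were then larger for zen (2.50), scw (2.27), tld (1.02), vnd (1.01) and ind (0.88) than for dpp (0.41), brk (0.43), sog (0.14), sim (0.07) and rho (0.01).

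The controls of 2–4 h themselves differed in scw and zen, whereas tld and dpp and the other 6 members were not called between them. Of all genes 12.2% were called between these controls in either direction. The MTD-Gal4 libraries had 36.4 and 21.6 CPM of scw, against 1.02 and 3.02 CPM in mCherry libraries (log2 4.01, adjusted p 0.0766), and 47.6 and 65.7 CPM of zen, against 4.02 and 10.8 CPM (log2 3.06, adjusted p 0.0766). Genes of the cellularizing blastoderm moved with them, since nullo stood at 27.9 and 14.3 CPM in MTD-Gal4 libraries and at 0.38 CPM in each mCherry library, and bnk at 220 and 254 CPM against 2.36 and 8.36 CPM. The late muscle list summed to 78.8 and 75.8 CPM in MTD-Gal4 libraries, against 332 and 1865 CPM in mCherry libraries.

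Within the twi experiment, genes that mark embryonic age also differed between the groups. The 9 segment polarity genes summed to 1175 and 1140 CPM in twi RNAi, against 639 and 535 CPM in MTD-Gal4 controls. All 9 were called higher (median log2 0.92), led by mid (1.16), en (1.15), inv (1.08) and ptc (1.05). Of the 9 maternal RNAs of the egg, swa (−1.56) and bcd (−1.60) were called lower and none higher, and bcd stood at 49.9 and 47.0 CPM in twi RNAi, against 140 and 135 CPM in controls. The 7 cellularization genes tested gave no call, and their sums of 1844 and 2994 CPM in twi RNAi overlapped 2024 and 2209 CPM in controls. Of 9 late muscle genes 8 were called higher and Act87E lower. Among the 8, TpnC73F and Mlc1 passed the filter on low counts only through the twi RNAi libraries. The list's sum was 76.0 and 104 CPM in twi RNAi, against 78.8 and 75.8 CPM in controls. Most of the control sums was Act87E, with 64.3 and 66.0 CPM there against 27.2 and 20.2 CPM in twi RNAi, so the sum does not show the rise of the other genes. The late cuticle list summed to 15.2 and 88.8 CPM in twi RNAi, against 1.19 and 0.588 CPM in controls. Most of that came from Osi6 (7.21 and 56.0 CPM in twi RNAi) and Osi7 (5.74 and 31.4 CPM), which had no count in either control. These 2 genes passed the filter on low counts only through the twi RNAi libraries, so no share called is given for this list. The late neural list summed to 34.4 and 48.6 CPM, against 21.8 and 22.4 CPM, with 3 of 7 called higher and 2 lower. Of these, Syt1 (higher) passed the filter on low counts only through the twi RNAi libraries, and Rdl (lower) only through the controls. The part that embryonic age plays in the changes of the 10 genes was not tested.

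**Figure D3:**
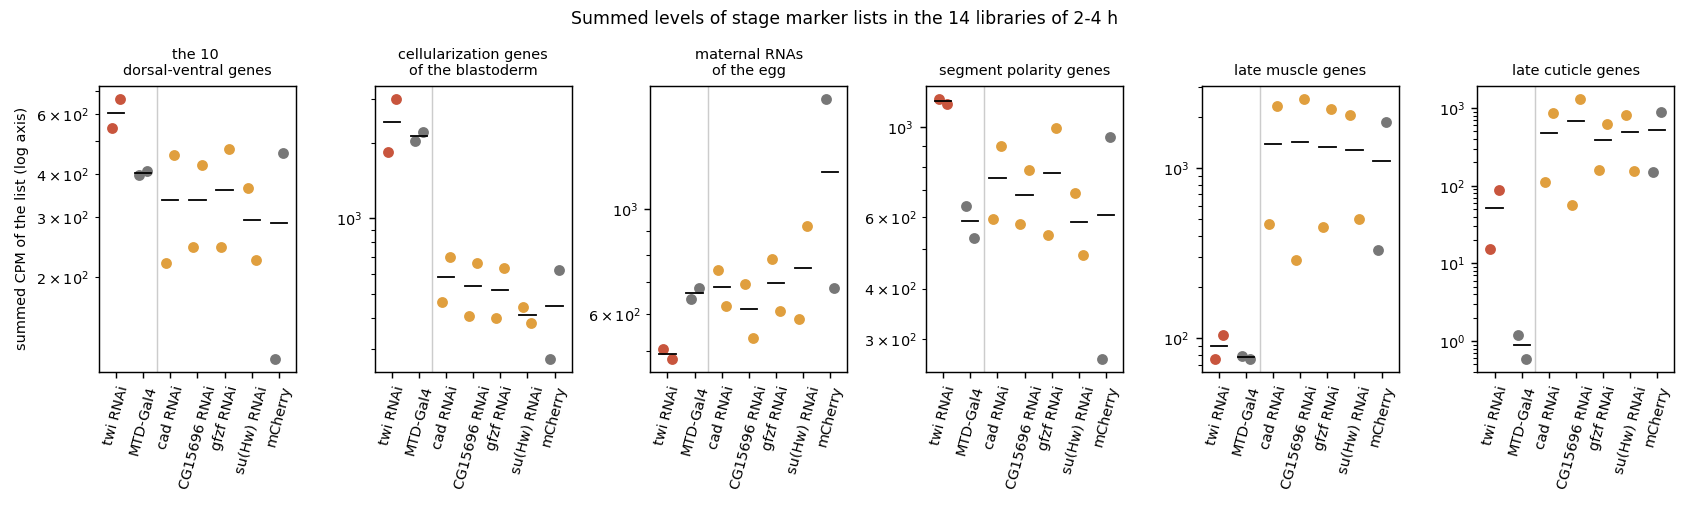
Summed CPM (log axis) of the 10 dorsal-ventral genes and of 5 lists that mark embryonic age in the 14 libraries of 2–4 h, with groups, points and lines as in the plot of single genes at 2–4 h. Segment polarity genes are higher in both twi RNAi libraries (1175 and 1140 CPM) than in both MTD-Gal4 controls (639 and 535 CPM), and cellularization genes are higher in all 4 of these libraries than in the other 10.

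Other genes of the same pathways were examined as lists, where the share of all genes called (above) is the background. Of 13 dorsal and amnioserosa genes, 6 were called higher and none lower (median 0.53), and the sum of the list was 1177 and 1234 CPM in twi RNAi, against 721 and 735 CPM in MTD-Gal4 controls. The leading ones were peb (1.81), tup (1.03), C15 (1.02) and the GATA factor gene pnr (0.96). Of 12 BMP signalling components 6 were called higher, led by the receptor gene wit (1.44), the ligand gene gbb (0.88), cv-2 (0.78) and shn (0.72). The wit level was low, at 1.12 and 1.93 CPM in twi RNAi, against 0.351 and 0.712 CPM in MTD-Gal4 controls. The receptor gene put (−0.77) and the Smad gene Mad (−0.85) fell. Of 15 neurogenic ectoderm and EGF genes, 11 were called higher and none lower (median 0.75), led by Dr (1.41), which marks the lateral neuroblast column, SoxN (1.33) and the FGF ligand genes pyr (1.25) and ths (0.89).

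Of 9 ventral midline genes 7 were called higher (median 0.65), among them sli (1.33), oc (0.78), btl (0.78) and wrapper (2.02), and Tl, the maternal receptor gene, was called lower (−0.73). The wrapper level was near the floor, at 0.333 and 0.369 CPM in twi RNAi, against 0.0468 and 0.108 CPM in MTD-Gal4 controls. It passed the filter on low counts only through the twi RNAi libraries, so its call among the 7 is no evidence of a rise. Of 17 presumptive mesoderm genes, NetA (1.29), wntD (0.84) and mthl1 (0.80) were called higher and twi itself and htl (−0.61) lower, and the median was −0.04. The mesodermal repressor gene sna had 194 and 211 CPM in twi RNAi, against 134 and 160 CPM in MTD-Gal4 controls, and was not called. Of 14 genes of the maternal Toll and Dorsal pathway, 8 were called lower, among them spz (−1.31), Myd88 (−1.20), gd (−1.16) and snk (−1.09), and 3 higher, pip (3.57), ndl (1.73) and wbl (1.45). Some of these levels were low, with pip at 2.26 and 1.91 CPM in twi RNAi, against 0 and 0.309 CPM in MTD-Gal4 controls. In the same order ndl had 0.666 and 0.632 against 0.164 and 0.201 CPM, and wbl 3.40 and 2.30 against 0.655 and 1.31 CPM. Both pip and ndl passed the filter on low counts only through the twi RNAi libraries, so their calls among the 3 are no evidence of a rise. The gd level was 1.36 and 1.07 against 1.82 and 3.34 CPM. With both mCherry libraries as controls none of these pathway lists had a call. Without the first mCherry library, which left 1 control library, the median log2 fold change was 0.70 over the dorsal and amnioserosa genes and 0.01 over the neurogenic ectoderm and EGF genes. In the same setting the median was −0.21 over the BMP components, −0.27 over the mesoderm genes, −0.21 over the midline genes and −0.16 over the Toll and Dorsal pathway. There wrapper (−3.23), pip (−3.24) and wbl (−1.29) were below 0.

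In the other windows of the twi experiment no member was called, where 10.9% of all genes were called in either direction at 0–1.5 h and 1.98% at 16–18 h. At 0–1.5 h (edgeR, 2 members at an unadjusted p under 0.05, and 2 called by DESeq2), sog had 1.28 and 1.05 CPM in twi RNAi, against 2.71 and 2.45 CPM in MTD-Gal4 controls (log2 −1.25, adjusted p 0.106), and tld had 2.96 and 3.53 CPM against 5.10 and 4.89 CPM (log2 −0.73, adjusted p 0.147). Both lay below their controls. The twi RNAi effect at 2–4 h exceeded that at 0–1.5 h for sog, brk, dpp, vnd, sim and tld, by 1.02 (tld) to 2.94 (sim) in a test of the difference (edgeR adjusted p 0.0292 to 0.0889). In that test 14.4% of all genes were called in either direction. These differences also hold the effects at 0–1.5 h, where MTD-Gal4 controls had only 0.169 and 0.377 CPM of sim and 0.862 and 0.575 CPM of vnd. At 2–4 h alone the effect was 0.85 for sim and 0.19 for tld, which was not called there. At 16–18 h (1 member at an unadjusted p under 0.05, none called by DESeq2), zen had 0.271 and 0.0436 CPM in twi RNAi, against 1.02 and 0.650 CPM in controls (log2 −2.57, adjusted p 0.349), and the other 8 genes tested overlapped their controls.

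A further 4 TFs had their peak at 2–4 h, cad, CG15696, gfzf and su(Hw), and all were compared with the same 2 mCherry libraries. Of the 40 comparisons of a member with these controls edgeR called 0, with 0 at an unadjusted p under 0.05 and 0 by DESeq2, and the groups overlapped in all 40. The first mCherry library was the lowest of all 14 libraries of 2–4 h for dpp, tld, sog, brk, rho, vnd, ind, sim and zen, with 31.7 CPM of sog against 142 CPM in the second. It also held 125 CPM of the maternal osk transcript, against 3.79 CPM in the second. Among all genes, 1.1% were called in either direction for cad, 0.0274% for CG15696, 1.25% for gfzf and 2.06% for su(Hw). The targeted gene cad had 55.2 and 48.9 CPM in cad RNAi, against 167 and 39.7 CPM in mCherry controls, so the groups overlapped there too.

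In these RNAi groups the replicates stood apart as well. In cad RNAi sog had 51.0 and 146 CPM, in CG15696 RNAi 69.7 and 113 CPM, in gfzf RNAi 68.8 and 132 CPM, and in su(Hw) RNAi 110 and 57.2 CPM. Replicate 2 was higher for 9 of 10 members in cad and CG15696 RNAi, for all 10 in gfzf RNAi and in mCherry, and for 0 of 10 in su(Hw) RNAi, with median log2 gaps of 0.99, 0.77, 0.93, 1.91 and −0.65. The gap was 0.23 in twi RNAi and −0.10 in MTD-Gal4 controls. The library of each pair with more of the members also had more of the late muscle list, for example 2306 against 468 CPM in cad RNAi and 2044 against 505 CPM in su(Hw) RNAi. Whether the span of ages within the collections set these gaps was not tested.

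Over the peak windows of all 45 TFs, calls on the 10 genes came from 6 TFs. Of 412 tests, 9 were called higher (2.18%) and 15 lower (3.64%), against 4.06% and 2.72% of all genes in the same comparisons. Of these calls, 6 belonged to twi RNAi and 9 to caup RNAi. Without caup RNAi, 8 were called higher (1.99%) and 7 lower (1.74%) of 403, against 3.35% and 1.65% of all genes. Several of these comparisons share control libraries.

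**Figure D4:**
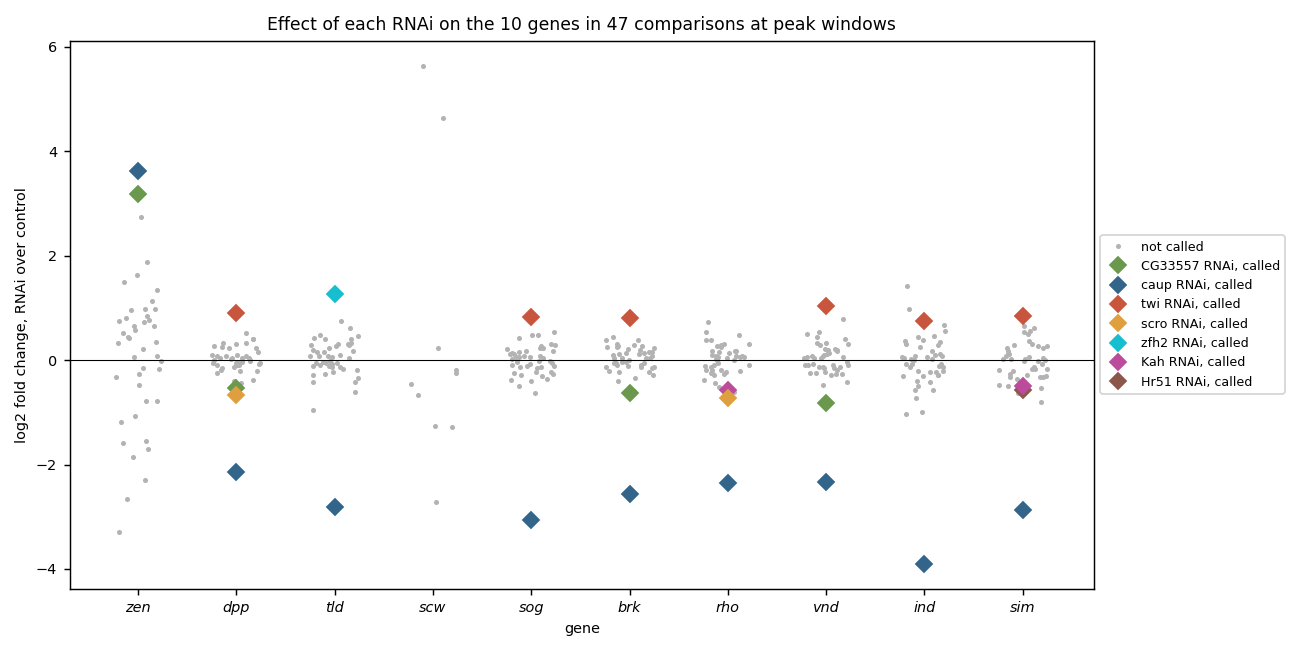
Log2 fold change of RNAi over control for each gene (x axis) in the 47 comparisons at peak and second peak windows. Grey points were not called and coloured diamonds were called, with the RNAi named in the legend. The caup RNAi diamonds are lowest for 8 genes and highest for zen (3.62), and the twi RNAi diamonds are the highest for dpp, sog, brk, vnd and sim.

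CG33557 RNAi at 6–8 h gave 4 calls, with zen higher and dpp, brk and vnd lower. CG33557 encodes a bHLH TF. The zen level was 1.14 and 3.99 CPM in CG33557 RNAi, against 0.295 and 0.348 CPM in mCherry controls (log2 3.18, SE 0.78, adjusted p 0.0338). The brk level was 37.9 and 32.4 CPM against 59.5 and 58.5 CPM (log2 −0.63, SE 0.12, adjusted p 0.0209), that of dpp 30.5 and 23.2 CPM against 42.6 and 41.7 CPM (log2 −0.54, SE 0.14, adjusted p 0.0387), and that of vnd 6.47 and 7.61 CPM against 14.0 and 13.4 CPM (log2 −0.83, SE 0.24, adjusted p 0.0497). Of all genes 26.3% were called higher and 11.0% lower. In the same comparison 4 of 9 maternal RNAs of the egg and 8 of 14 Toll and Dorsal pathway genes were called higher, and 7 of 9 segment polarity genes lower. The part of embryonic age in these calls was not tested. The brk call held without any 1 library, whereas zen and vnd were not called without control replicate 1 (log2 3.14 and −0.72) or control replicate 2 (3.22 and −0.94), nor dpp without control replicate 1 (−0.44), with RLE scaling (−0.49) or with DESeq2 (−0.49).

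In Kah RNAi at 8–10 h rho and sim were called lower. Kah encodes a zinc finger TF of the Snail family. The rho level was 32.7 and 32.1 CPM in Kah RNAi, against 42.8 and 48.7 CPM in mCherry controls (log2 −0.58, SE 0.10, adjusted p 0.00564), and the sim level was 4.33 and 5.24 CPM against 6.35 and 6.43 CPM (log2 −0.50, SE 0.17, adjusted p 0.0591), with 7.48% of all genes called lower. Leaving out any 1 of the 4 libraries ended the sim call (log2 −0.39 to −0.53), and leaving out RNAi replicate 2 (−0.415) or control replicate 2 (−0.47) brought rho under the fold threshold. RLE scaling and DESeq2 also ended the calls on rho (−0.48 each) and sim (−0.41 each). In Hr51 RNAi at the second peak of 6–8 h sim was called lower too, with 5.93 and 5.27 CPM against 8.30 and 8.68 CPM in mCherry controls (log2 −0.57, SE 0.16, adjusted p 0.0552), where 6.81% of all genes were called lower, and the call ended without RNAi replicate 2, with RLE scaling and with DESeq2 (log2 −0.48 each).

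scro RNAi and zfh2 RNAi were compared at 12–14 h. scro encodes a homeodomain TF of the NK-2 class, as vnd does, and zfh2 a TF with homeodomains and zinc fingers. In scro RNAi dpp had 16.2 and 15.8 CPM, against 20.1 and 29.0 CPM in mCherry controls (log2 −0.67, SE 0.22, adjusted p 0.0785), and rho had 13.8 and 15.3 CPM against 18.7 and 27.7 CPM (log2 −0.73, SE 0.24, adjusted p 0.0797), with 12.7% of all genes called lower. These 2 calls ended without either RNAi replicate or control replicate 2 (log2 −0.59, −0.43 and −0.41 for dpp, and −0.55, −0.58 and −0.45 for rho, in that order). They also ended with RLE scaling (−0.55 for dpp and −0.61 for rho) and with DESeq2 (−0.55 and −0.61). In zfh2 RNAi the protease gene tld stood at 3.80 and 4.31 CPM, against 1.66 and 1.79 CPM in the control libraries (log2 1.26, SE 0.22, adjusted p 0.0624), with 1.27% of all genes called higher. The tld call ended without either control replicate (log2 1.21 without replicate 1 and 1.30 without replicate 2) and without the filter on low counts (1.26).

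caup RNAi at 10–12 h gave a call on every member tested, with zen higher and 8 genes lower. caup encodes an Iroquois homeodomain TF. The zen level was 5.62 and 3.45 CPM in caup RNAi, against 0.592 and 0.203 CPM in mCherry controls (log2 3.62, SE 0.75, adjusted p 0.0135). Lower were ind (log2 −3.90), sog (−3.07), sim (−2.86), tld (−2.81), brk (−2.57), rho (−2.36), vnd (−2.33) and dpp (−2.15). The sog level, for example, was 4.88 and 0.538 CPM in caup RNAi, against 24.2 and 24.5 CPM in controls (adjusted p 0.0429), and the dpp level 6.44 and 2.25 CPM against 20.5 and 21.5 CPM (adjusted p 0.0215).

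These caup values stand beside a shift of the whole library. The median of all genes was −1.17, 35.4% were called higher and 49.5% lower, 7 of 9 maternal RNAs of the egg were called higher (median 2.69), and all 9 segment polarity genes and all 9 late muscle genes lower. Of the 9 members tested, 8 lay further down than that median and zen lay above it. The part of embryonic age or survival in these values was not tested. The calls on brk, dpp, rho and sog held without any 1 library, those on ind, sim, tld and vnd ended without control replicate 1 (log2 −4.19, −2.68, −2.985 and −2.36) or control replicate 2 (−3.70, −3.11, −2.74 and −2.40), and that on zen without control replicate 2 (3.04).

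At 0–1.5 h, before zygotic expression of most of these genes, 1 of 450 tests was called higher and none lower, against 0.267% and 0.764% of all genes. edgeR found 18 tests at an unadjusted p under 0.05, DESeq2 called 10, and 32 of the 45 comparisons had no call on any gene. The call was scw in Sox14 RNAi, with 3.15 and 6.63 CPM against 1.79 and 2.87 CPM in mCherry controls (log2 1.28, SE 0.39, adjusted p 0.0649), where 0.165% of all genes were called higher. It ended without RNAi replicate 2 (log2 0.60). The effects of single comparisons at this window spread widely without being called, for brk from −1.91 to 4.56 and for tld from −3.48 to 3.30. Control libraries of this window ranged from 2.47 to 1729 CPM in the sum of the late muscle list, and the part of older embryos was not tested.

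At 16–18 h, 3 of 392 tests were called higher and 6 lower, against 2.33% and 1.7% of all genes. caup RNAi again gave most of them. The zen level was 4.07 and 7.77 CPM in caup RNAi, against 0.237 and 0.213 CPM in mCherry controls (log2 4.44, SE 0.65, adjusted p 0.00191), with 30.2% of all genes called higher. Lower there were sim (0.236 and 0.0585 CPM against 1.65 and 1.69 CPM, log2 −3.59), vnd (−1.59), tld (−1.48) and sog (−1.05), with 18.5% of all genes called lower. The gene ind was also called lower, with no count in either caup RNAi library, against 0.395 CPM in each control, so no fold change is given. All 6 of these calls ended without control replicate 1 (log2 4.50 for zen, −3.65 for sim, −1.69 for vnd, −1.56 for tld and −1.12 for sog) or control replicate 2 (4.38, −3.58, −1.49, −1.41 and −0.99), and those on tld (−1.25) and sog (−0.82) also with DESeq2.

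The other 3 calls at 16–18 h came from Bdp1, CG10209 and kay RNAi. In Bdp1 RNAi zen had 0.747 and 0.386 CPM, against 0.0892 and 0.155 CPM in mCherry controls (log2 2.24, SE 0.59, edgeR adjusted p 0.0174), where 18.7% of all genes were called higher, and the call ended without RNAi replicate 1 or control replicate 1 (log2 1.66 and 1.91). These zen levels were near the floor, so the fold change is uncertain. At this window zen passed the filter on low counts in 37 of 45 comparisons. In CG10209 RNAi rho had 22.2 and 23.6 CPM, against 15.1 CPM in each control (log2 0.56, SE 0.12, adjusted p 0.0129), with 12.6% of all genes called higher, and the call ended without control replicate 1 (log2 0.54). In kay RNAi sog stood at 26.5 and 30.0 CPM, against 42.8 and 38.1 CPM in the control libraries (log2 −0.53, SE 0.12, adjusted p 0.0676), with 4.61% of all genes called lower, and the call ended without RNAi replicate 1, RNAi replicate 2 or control replicate 1 (log2 −0.44, −0.64 and −0.47).

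Across all peak and second peak windows the log2 fold changes of the 10 genes, called or not, spread differently. The widest ranges were those of scw, between −2.72 and 5.64 over 10 tests with 0 called, and zen, between −3.30 and 3.62 over 44 tests with 2 called. The control medians of both were at 0.424 CPM or lower after 2–4 h, and the cause of their spread was not tested. The range was −2.15 to 0.90 for dpp and −3.07 to 0.83 for sog over 47 tests each, with medians of 0.00 and 0.01. Since scw passed the filter on low counts only in these 10 of the 47 comparisons and in 1 of 45 at 16–18 h, its count of 0 calls there covers few tests.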

How the data were processed

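PolyA RNA of whole embryos was sequenced with stranded libraries. Counts per gene were deposited by the authors, who aligned reads with STAR 2.7.3a to release 6 of the genome (up to 20 alignments) and counted with HTSeq 0.12.4, leaving reads of several genes uncounted; the strand setting was not given in the sources used here. Reads assigned to no single gene (3.52% to 20.7% of each library) were left out. Each RNAi group was compared with its matching control in edgeR 4.0.16 (R 4.3.3) on the deposited counts, with TMM scaling, filterByExpr at a minimum count of 10 and the quasi-likelihood test. Each SE is the absolute log2 fold change divided by the square root of that test's F statistic, so it restates the test. Control windows were fitted over all control libraries with the control set as covariate. Alternatives were RLE scaling, no filter, DESeq2 1.42.0, a replicate block, stricter thresholds, other controls and each replicate left out; 3 of them, which leave out the first mCherry library of 2–4 h or caup, were chosen after seeing the data. Scripts (Python 3.11.15, pandas 2.3.3) were tested on simulated data. In counts simulated from twi RNAi at 2–4 h, edgeR found 67 of 100 genes changed 2-fold and 93 of 100 changed 4-fold. At an adjusted p of at most 0.1, without a fold threshold, edgeR also called 40 unchanged genes there and DESeq2 69. Unchanged genes called by edgeR numbered 26 for CG33557 RNAi at 6–8 h and 10 for control windows. The labels number the 2 replicates of a group, which the methods call biological.

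The 10 genes and all lists were chosen with earlier results of these data known. Named besides the members were the targeted TFs, the TFs whose RNAi gave a call, up to 4 genes called higher and 4 lower with the largest change in each list in twi RNAi at 2–4 h, and the 2 genes most like each member over control libraries; nullo, bnk, osk and sna were named after their values were seen.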

Additional observations from a re-analysis of the deposited data

Results flagged for a closer look

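Of 40 control groups in which a gene's libraries could be searched for 1 that lies far from the rest, 3 held such a library. The cutoffs mark about 1 in 20 by chance only for normal and independent values. That rate does not apply here, since libraries come in sets and scw had no count in 5 of 8 libraries at 6–8 h and 3 of 6 at 14–16 h. At 6–8 h the first mCherry library of the sens, Sox14 and trh set had 3.14 CPM of zen and 4.13 CPM of scw, each with the nearest of the other 7 libraries at 0.927 CPM. At 14–16 h the second mCherry library of the CG2120 and Pdp1 set had 0.111 CPM of scw, with the nearest of the other libraries at 0.0207 CPM.

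The effect of an RNAi was compared between windows for the 11 TFs with a call on a member, and 12 of 348 differences were called (3.45%; edgeR interaction term, adjusted over all genes), against 7.93% of all genes in the same tests. For twi RNAi the effect at 2–4 h exceeded that at 0–1.5 h by 2.94 for sim (adjusted p 0.0703), 2.19 for sog (0.0292), 1.64 for vnd (0.0798), 1.56 for brk (0.0331), 1.32 for dpp (0.0889) and 1.02 for tld (0.0712), on the log2 scale, where 14.4% of all genes were called. These differences also hold the effects at 0–1.5 h, where MTD-Gal4 controls had only 0.169 and 0.377 CPM of sim. For caup RNAi the zen effect at 10–12 h exceeded that at 0–1.5 h by 5.05 (adjusted p 0.0211; 52.0% of all genes called), and that at 16–18 h by 6.09 (adjusted p 0.00602; 29.7% called). The caup RNAi effect at 16–18 h lay above that at 10–12 h by 2.07 for dpp (adjusted p 0.0673), 2.65 for rho (0.0395) and 2.97 for sog (0.0687), where 54.5% of all genes were called. For scro RNAi the sog effect at 16–18 h lay above that at 12–14 h by 1.25 (adjusted p 0.0897; 10.1% of all genes called).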

How the results depend on the processing

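Of the 6 calls in twi RNAi at 2–4 h, 1 remained where the log2 fold change had to reach 1 in size. In a fit of all 14 libraries 0 remained, where 21 of 11476 genes were called, and 0 with both mCherry libraries as controls, where 0 of 10313 were. DESeq2 and no filter each gave 1 member lower. DESeq2 called 1790 of 10507 genes higher and 1472 lower, and edgeR without the filter 2037 of 13355 higher and 1328 lower. With mCherry controls the log2 fold change changed sign for zen (2.96, and 2.50 without the first library), scw (2.77 and 2.27), wit (−2.08 and −1.55), wrapper (−2.86 and −3.23), mthl1 (−0.49 and −0.27), pip (−2.76 and −3.24), wbl (−1.01 and −1.29) and, with both libraries only, twi (0.21). Without the first library it also did so for tup (−0.12), ths (−0.63), pyr (−0.25), btl (−0.23), sli (−0.21), NetA (−0.14), spz (0.0759) and gd (0.65). Leaving out 1 replicate moved zen between −0.61 and 0.20 and tld between −0.0285 and 0.39. The cause of these changes was not tested.

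At 0–1.5 h the calls were 7 higher and 3 lower by DESeq2, 2 lower without the filter, 0 higher at an adjusted p of at most 0.05, and 4 to 8 higher and 1 to 19 lower without 1 replicate. At peak windows they were 4 higher and 8 lower where the log2 fold change had to reach 1 in size, 7 lower without caup, and 9 to 23 lower without 1 replicate. At 16–18 h they were 3 lower at an adjusted p of at most 0.05, 1 lower without caup, and 3 to 14 higher and 5 to 17 lower without 1 replicate. Over the 7 steps between control windows, 11 falls became 5 to 6 without replicate 1 or 2 of every group. A group left with 1 library was assumed to vary like the other, and comparisons of 3 libraries gave no fit without another. The shares of all genes called under these alternatives are not given here, so the counts do not tell changes of the members from changes of whole comparisons.

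The labels give the replicates of RNAi and control the same numbers but do not pair them, and the correlation of same-numbered deviations ranged from −0.874 to 0.897 over 134 comparisons, above 0.1 in 61 and below −0.1 in 54. With the replicate block, the calls on sim in twi RNAi at 2–4 h (5 of 6 kept) and on sog and tld in caup RNAi at 16–18 h (adjusted p 0.138 and 0.184) were lost, in twi RNAi the ventral midline list gave 2 higher and 1 lower and the Toll and Dorsal list 0 higher and 3 lower, 16–18 h gave 6 higher and 7 lower, peak windows 9 and 18, 0–1.5 h 1 and 0, and the control windows 11 and 11.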
